A study of Homo sapiens with 6 samples.

Results

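The ERK feedback genes are 10 genes whose transcripts follow the activity of the RAS-RAF-MEK-ERK kinase cascade and whose products, in most cases, act back on it. They are the dual-specificity phosphatases DUSP4, DUSP5 and DUSP6, the Sprouty and Spred inhibitors SPRY2, SPRY4, SPRED1 and SPRED2, the ETS transcription factors ETV4 and ETV5, and PHLDA1. They were compared between A375 cells with lentiviral shRNA knockdown of UBE2S (3 arrays) and control A375 cells (3 arrays), all hybridized to Affymetrix expression arrays. The labels spell the target UEB2S, read here as UBE2S, a ubiquitin-conjugating enzyme that works with the anaphase-promoting complex. A375 is an established human melanoma cell line that carries an activating BRAF mutation, so both groups share a constantly driven cascade. What the control cells received, the hairpin sequence and the time after infection are not given in the sources used here. Members were taken as the probe sets annotated with a single symbol that is 1 of the 10 names. All 10 were found among 18132 genes, with 28 of the 49395 probe sets in the table, and 3 of the genes (DUSP4, DUSP5 and SPRY2) had only 1 probe set.

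In the ERK cascade, growth factor receptors activate RAS, RAS activates the RAF kinases, and RAF passes the signal through MEK to ERK, which enters the nucleus and switches on immediate and delayed target genes. Several of these targets are brakes: DUSP proteins remove the activating phosphates from ERK, and Sprouty and Spred proteins act at the level of the receptors, RAS and RAF. In melanoma cells with mutant BRAF the pathway is fed from RAF itself, and the transcripts of these genes are widely used as a readout of ERK output. Transcripts were measured here, and neither ERK phosphorylation nor any of the proteins was.

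Values are log2 expression, in which every probe set has a median of 0 over the 6 arrays, and a gene is the mean of its probe sets. They hold differences between arrays and no level, so genes cannot be ranked by abundance. A coarse signal class (high, middle or low) could be read from the rounding of the values. Of 7 measured melanocyte markers, SOX10 and S100B had a probe set of the high class. MITF, PMEL, MLANA and TYR reached the middle class, and TYRP1 only the low class. In bulk samples, fewer cells that express a gene and less RNA per cell cannot be told apart. When the groups separate fully, the centring places the nearest arrays of a single probe set at equal distances above and below 0. Changes are knockdown minus control. They were tested with limma over 18132 genes, with Benjamini-Hochberg adjustment and an adjusted p under 0.05 as the threshold, and SE is limma's moderated standard error. UBE2S read -1.13, -1.05 and -1.01 in the knockdown arrays, against 1.06, 1.01 and 1.01 in the control arrays. Its fall of -2.09 (SE 0.04, adjusted p = 9.23e-08) fits that reading. Over all genes 40.1% passed the test, 21.4% upward and 18.6% downward. The 18 hybridization spike-in probe sets were 0.168 higher in knockdown arrays and the 24 poly-A ones 0.098 higher, both without overlap between the groups. Centring arrays on the hybridization spike-ins moved the median change of all genes to -0.17, against -0.0038 as deposited, and poly-A centring moved it to -0.10. For the ACTB control the 3' minus 5' difference was 0.191 higher in knockdown than in control arrays and the groups did not overlap. For GAPDH it was 0.0226 higher and they overlapped. The part of RNA integrity and array scaling in the gene results was not tested beyond the centrings given below.

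The ERK feedback genes split. DUSP6, PHLDA1, SPRED2, ETV5, ETV4 and SPRY2 rose in UBE2S knockdown cells, DUSP4 and DUSP5 fell, and SPRY4 and SPRED1 did not pass the test. Thus 8 of 10 members changed, where 40.1% of all genes did and where 59.6% did among the 6488 genes that, like all 10 members, have a probe set of high signal. The 2 groups of arrays did not overlap for these 8 genes, as for 50% of all genes and 72.2% of those with a high-signal probe set. Of the 28 probe sets, 20 rose, 4 fell and 4 did not pass, so 24 changed, where 36.9% of all probe sets did (19.5% upward and 17.4% downward). The groups did not overlap in 25 of them, as in 48.2% of all probe sets. Of the 28, 18 were of the high signal class, against 25.7% of all probe sets. Shares among high-signal probe sets alone were not computed, so these counts are not matched for signal. The median change of the members was 0.17 and their median absolute change 0.29, against -0.0038 and 0.11 for all genes. None of the members reached a 2-fold change, which 193 genes did. The balance depended on scaling: 6 rises and 2 falls as deposited became 4 rises and 3 falls with poly-A spike-in centring, and 3 rises and 4 falls with hybridization spike-in centring. Over all genes 3888 rises and 3378 falls became 2486 and 6297 with poly-A centring (48.4% changed), and 1764 and 9196 with hybridization spike-in centring (60.4% changed).

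**Figure D1:**
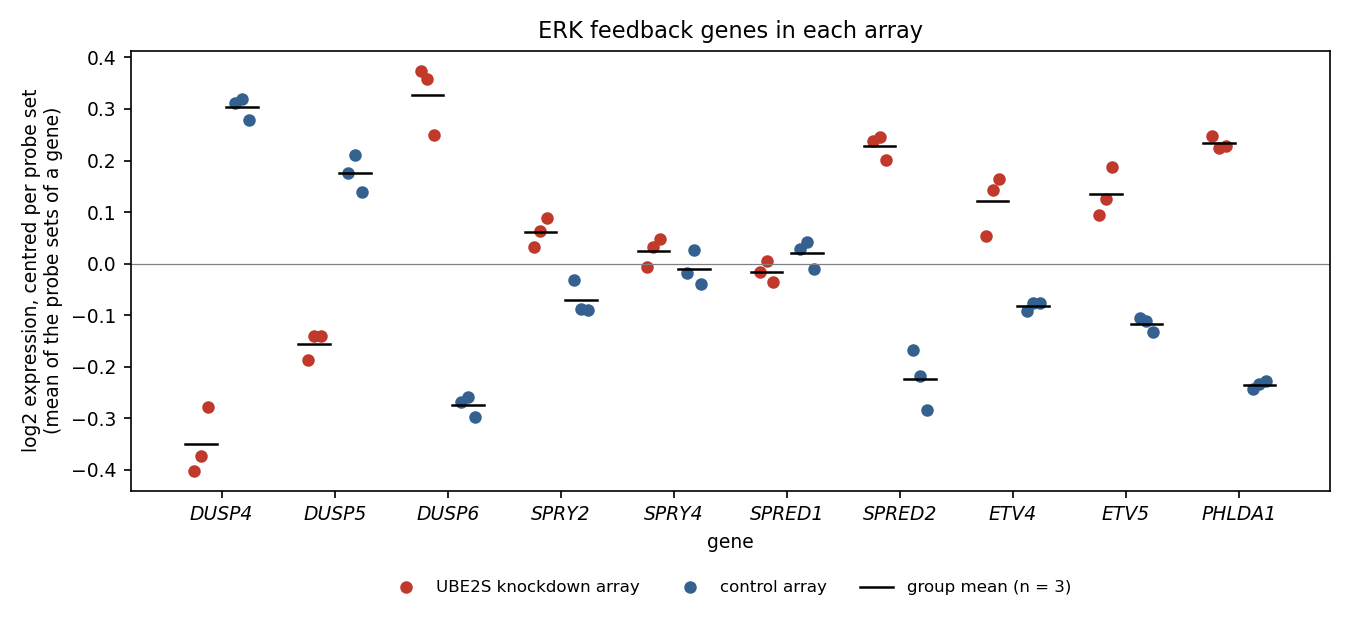
Log2 expression centred per probe set (vertical axis, mean of the probe sets of a gene) of the 10 genes (horizontal axis) in each UBE2S knockdown array (red, left) and control array (blue, right), with the group mean as a bar. The knockdown arrays lie below all control arrays for DUSP4 and DUSP5 and above them for DUSP6, SPRY2, SPRED2, ETV4, ETV5 and PHLDA1, while the groups overlap for SPRY4 and SPRED1.

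The phosphatases moved in opposite directions. DUSP6, a cytoplasmic phosphatase with a strong preference for ERK, read 0.37, 0.36 and 0.25 in the knockdown arrays, against -0.27, -0.26 and -0.30 in the control arrays. All knockdown arrays were higher than all control arrays, and replicate 3 was the lowest of them. The mean was 0.33 ± 0.07 in knockdown cells and -0.27 ± 0.02 in control cells (SD, n = 3 each), a rise of 0.60 (SE 0.04), or 1.52-fold, with an adjusted p of 1.97e-05 in limma. Its 4 probe sets, all of high signal, rose by 0.51 to 0.65 and did not differ from each other beyond their error (adjusted p = 0.42, F test of limma's diffSplice). Of all genes, 471 rose further.

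DUSP4, a nuclear phosphatase that acts on ERK and on the stress kinase JNK, read -0.40, -0.37 and -0.28 in the knockdown arrays, against 0.31, 0.32 and 0.28 in the control arrays. The spread was wider in knockdown cells, and no array of one group reached the other. Its mean was -0.35 ± 0.06 in knockdown cells and 0.30 ± 0.02 in control cells (SD, n = 3 each), a fall of -0.65 (SE 0.04, adjusted p = 1.18e-05 in limma) that left 63.5% of the control signal. DUSP5, a nuclear phosphatase specific for ERK, read -0.19, -0.14 and -0.14 in the knockdown arrays, against 0.18, 0.21 and 0.14 in the control arrays. It fell by -0.33 (SE 0.04, adjusted p = 1.99e-04 in limma) to 79.5% of the control signal. Both rest on a single probe set, so no other probe set of the array reads the size of these falls. Among all genes 296 fell further than DUSP4.

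A difference taken within each array does not change when a constant is added to all values of an array, as the centrings here do. Other normalizations, such as the quantile step of RMA, can change it. DUSP6 minus DUSP4 was 0.78, 0.73 and 0.53 in the knockdown arrays, against -0.58, -0.58 and -0.58 in the control arrays, a shift of 1.26. The same difference between DUSP6 and DUSP5 was 0.48 ± 0.09 in knockdown cells and -0.45 ± 0.02 in control cells (SD, n = 3 each), a shift of 0.93 without overlap. The unequal change of the phosphatases is therefore the same under every centring by construction, and other normalizations were not tried. DUSP4 and DUSP5 fell and DUSP6 rose under all 16 other settings tried. The ranges were -0.82 to -0.63 for DUSP4, -0.50 to -0.31 for DUSP5 and 0.43 to 0.65 for DUSP6. Settings that choose among probe sets could not move DUSP4 or DUSP5, which have only 1 each. The replicate block and the robust variance model changed the error and not the value.

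Of the Spred proteins, which hold the RAS inhibitor neurofibromin at the membrane, SPRED2 rose and SPRED1 did not pass as a whole. SPRED2 read 0.24, 0.24 and 0.20 in the knockdown arrays, against -0.17, -0.22 and -0.28 in the control arrays. Its rise was 0.45 (SE 0.04, adjusted p = 6.74e-05 in limma), or 1.37-fold. The 3 probe sets rose by 0.59, 0.29 and 0.47 and differed from each other (adjusted p = 0.034, diffSplice). The smallest of these values, 0.29, came from its only high-signal probe set, and hybridization spike-in centring left 0.28.

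SPRED1 had a gene value of -0.017, 0.0046 and -0.036 in the knockdown arrays, against 0.029, 0.041 and -0.011 in the control arrays. These overlapped, and the difference of -0.04 (SE 0.04, adjusted p = 0.48 in limma) did not pass. It averages probe sets that moved in opposite directions. The probe set 11734824_at read 0.14, 0.10 and 0.19 in knockdown arrays, against -0.10, -0.14 and -0.14 in control arrays, a rise of 0.27 (SE 0.05, adjusted p = 0.0020 over 49293 probe sets in limma). By contrast 11734827_at read -0.086, -0.18 and -0.16 in knockdown arrays, against 0.16, 0.18 and 0.086 in control arrays, a fall of -0.28 (SE 0.05, adjusted p = 0.0028 in limma). Neither overlapped between the groups. The difference between the pair within an array was 0.29 ± 0.06 in knockdown cells and -0.27 ± 0.05 in control cells (SD, n = 3 each).
Of the remaining SPRED1 probe sets, 11734828_at rose by 0.16 (-0.011 after centring on hybridization spike-ins), 11734826_s_at fell by -0.21, and 11734825_at stood at -0.12 and did not pass. Unequal change among the 5 was called with an adjusted p of 2.24e-06 by diffSplice, a test that called 28.5% of the 11734 genes with at least 2 probe sets. With the 2 high-signal probe sets alone SPRED1 fell by -0.16 (adjusted p = 0.013 in limma), and over all 5 it fell by -0.20 (adjusted p = 0.0079) with hybridization and by -0.13 (adjusted p = 0.027) with poly-A spike-in centring. Which transcripts each probe set reads was not analysed here.

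**Figure D2:**
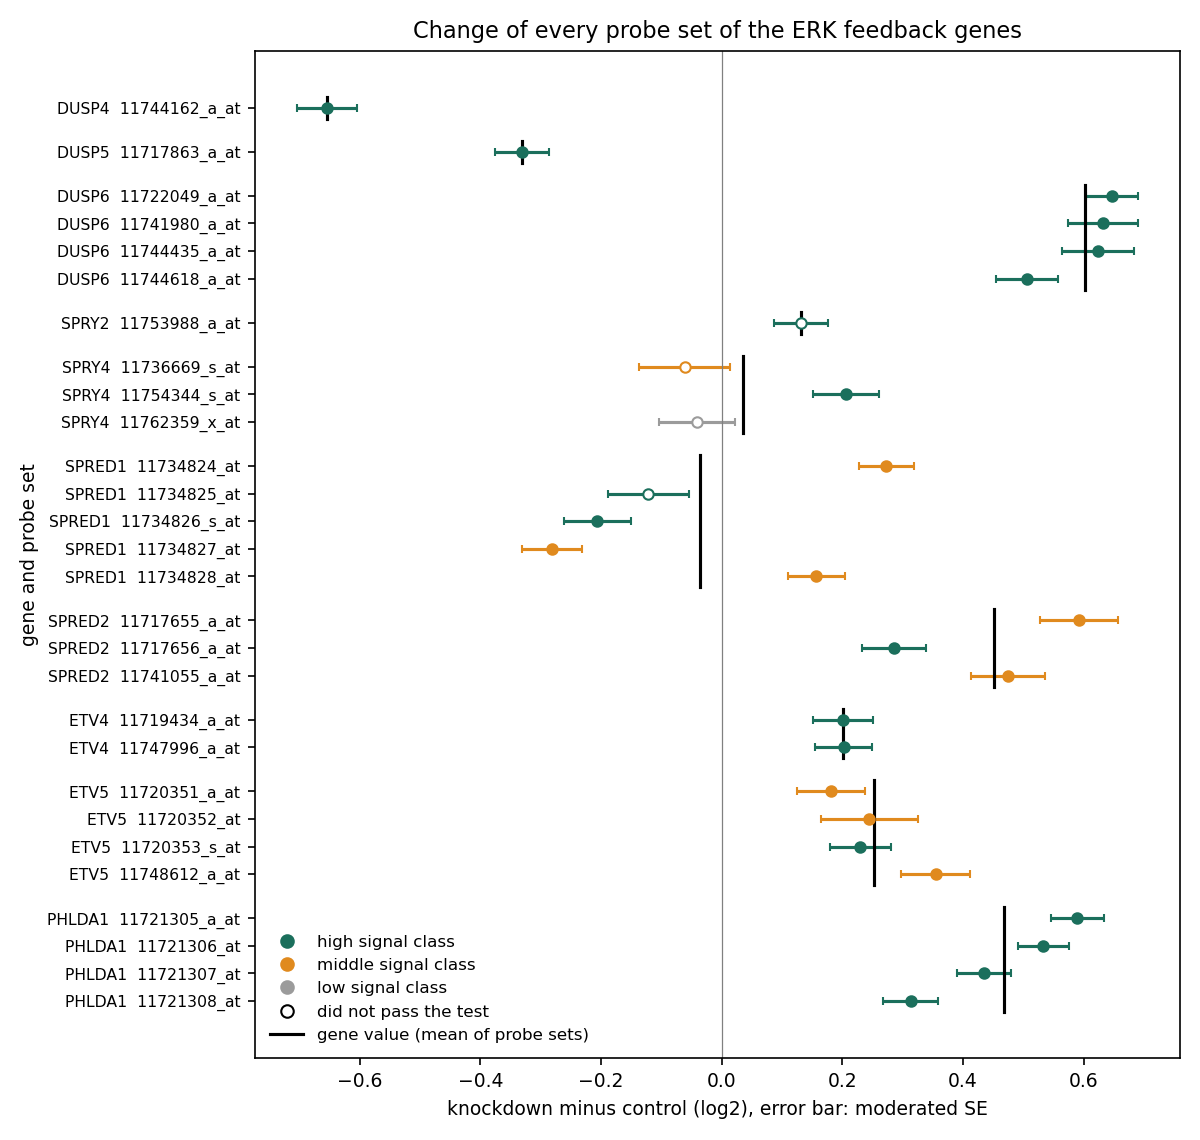
Knockdown minus control (log2, horizontal axis) of each of the 28 probe sets of the 10 genes (vertical axis), with moderated SE as error bars, the signal class as colour, open points for probe sets that did not pass the test and a black bar at the gene value. The probe sets of DUSP6, SPRED2, ETV4, ETV5 and PHLDA1 all lie to the right of 0, and those of SPRED1 lie on both sides.

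The Sprouty genes SPRY2 and SPRY4 had small gene-level differences. Sprouty proteins are inducible inhibitors of signalling from receptor tyrosine kinases to RAS and RAF. SPRY2 read 0.033, 0.063 and 0.089 in the knockdown arrays, against -0.033, -0.088 and -0.089 in the control arrays, without overlap. Its rise of 0.13 (SE 0.04) passed the test over genes (adjusted p = 0.022 in limma), whereas the same values missed it over probe sets (adjusted p = 0.051), and centring on hybridization spike-ins reversed it to -0.036. With poly-A centring it stood at 0.034 (adjusted p = 0.52 in limma). The gene-level call was also lost in the fit of 1 largest-variance probe set per gene (adjusted p = 0.069), with the replicate block (adjusted p = 0.063) and without knockdown replicate 2, knockdown replicate 3, control replicate 2 or control replicate 3, with values of 0.12 to 0.13 and adjusted p-values between 0.060 and 0.066.

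SPRY4 read -0.0062, 0.033 and 0.047 in the knockdown arrays, against -0.017, 0.027 and -0.040 in the control arrays. The groups overlapped, and the difference of 0.03 (SE 0.04, adjusted p = 0.51 in limma) did not pass. Of its 3 probe sets only the high-signal one, 11754344_s_at, rose (0.21, SE 0.05, adjusted p = 0.019 in limma), and that call was lost without knockdown replicate 2, knockdown replicate 3, control replicate 1 or control replicate 3. It also missed with poly-A (0.11) and hybridization spike-in centring (0.039). The others stood at -0.06 and -0.04, and unequal change among the 3 did not pass (adjusted p = 0.074, diffSplice). With hybridization spike-in centring the gene value fell by -0.13 (adjusted p = 0.026 in limma).

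The ETS factors ETV4 and ETV5, members of the PEA3 group that bind DNA at ETS sites and carry the ERK signal to further genes, rose together and by similar amounts. ETV5 read 0.094, 0.13 and 0.19 in the knockdown arrays, against -0.11, -0.11 and -0.13 in the control arrays. It rose by 0.25 (SE 0.04, adjusted p = 0.0010 in limma), or 1.19-fold. ETV4 read 0.054, 0.14 and 0.16 in the knockdown arrays, against -0.091, -0.076 and -0.077 in the control arrays, and rose by 0.20 (SE 0.04, adjusted p = 0.0044 in limma), or 1.15-fold.
All probe sets of both genes rose, by 0.18 to 0.35 for the 4 of ETV5 and by 0.20 for each of the 2 of ETV4. ETV5 minus ETV4 within an array overlapped between the groups (0.015 ± 0.029 in knockdown cells and -0.036 ± 0.021 in control cells, SD, n = 3 each). Both rises were larger than the spike-in offsets of 0.168 (hybridization) and 0.098 (poly-A), yet the calls depended on centring. With hybridization spike-in centring ETV5 stood at 0.09 (adjusted p = 0.11) and ETV4 at 0.03 (adjusted p = 0.50), and neither passed in limma. With poly-A centring ETV4 stood at 0.10 (adjusted p = 0.085), while ETV5 still passed at 0.15 (adjusted p = 0.014 in limma).

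PHLDA1 is a protein with a pleckstrin homology-like domain, and its transcript belongs to published signatures of ERK output. Its gene value had the smallest SD of all members in both groups, as a mean of 4 probe sets. Singly these had SDs of 0.017 to 0.040 in knockdown arrays and 0.011 to 0.043 in control arrays. The only probe set of DUSP5 had 0.027 and 0.036. PHLDA1 read 0.25, 0.23 and 0.23 in the knockdown arrays, against -0.24, -0.23 and -0.23 in the control arrays. The mean was 0.23 ± 0.01 in knockdown cells and -0.23 ± 0.01 in control cells (SD, n = 3 each), a rise of 0.47 (SE 0.03, adjusted p = 1.71e-05 in limma), or 1.38-fold. Its 4 probe sets, all of high signal, rose by 0.59, 0.53, 0.43 and 0.31 and differed from each other in size (adjusted p = 0.0016, diffSplice). The rises of DUSP6, PHLDA1 and SPRED2 passed under both spike-in centrings, at 0.43, 0.30 and 0.28 with hybridization spike-ins.

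**Figure D3:**
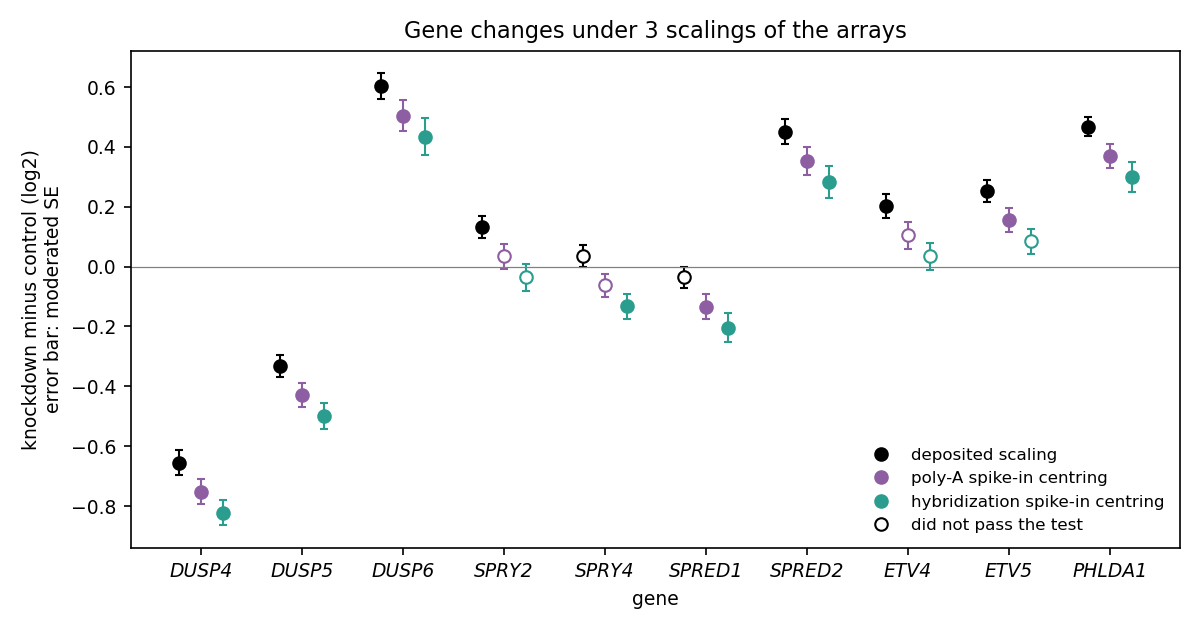
Knockdown minus control (log2, vertical axis) of each gene (horizontal axis) as deposited (black) and with arrays centred on poly-A (purple) or hybridization (green) spike-ins, with moderated SE as error bars and open points for values that did not pass the test. Each centring lowers all genes by the same amount, so DUSP4 and DUSP5 stay below 0, DUSP6, SPRED2 and PHLDA1 stay above it, and SPRY2 and SPRY4 cross it.

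The sequences upstream of the 3 largest rises are shown because these genes moved together and ETS and AP-1 factors are the usual carriers of the ERK signal to DNA. They are the 250 bases before the annotated RefSeq start on GRCh38.p14, all on the minus strand: DUSP6 at chr12:89352502-89352751, PHLDA1 at chr12:76031777-76032026 and the outermost start of SPRED2 at chr2:65432600-65432849. Capitals mark the letters CCGGAA, a form of the ETS site, on either strand. Shorter or other forms of the ETS site, such as GGAA alone, were not searched or marked.
DUSP6: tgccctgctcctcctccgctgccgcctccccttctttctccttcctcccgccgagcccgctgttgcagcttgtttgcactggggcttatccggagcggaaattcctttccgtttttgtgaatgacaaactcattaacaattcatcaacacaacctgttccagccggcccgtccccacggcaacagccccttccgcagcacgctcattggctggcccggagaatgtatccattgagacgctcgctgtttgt
PHLDA1: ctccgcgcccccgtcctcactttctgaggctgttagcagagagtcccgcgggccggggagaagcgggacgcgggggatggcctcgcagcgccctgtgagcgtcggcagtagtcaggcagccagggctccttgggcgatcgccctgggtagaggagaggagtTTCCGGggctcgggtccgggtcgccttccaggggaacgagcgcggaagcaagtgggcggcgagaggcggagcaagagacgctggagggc
SPRED2: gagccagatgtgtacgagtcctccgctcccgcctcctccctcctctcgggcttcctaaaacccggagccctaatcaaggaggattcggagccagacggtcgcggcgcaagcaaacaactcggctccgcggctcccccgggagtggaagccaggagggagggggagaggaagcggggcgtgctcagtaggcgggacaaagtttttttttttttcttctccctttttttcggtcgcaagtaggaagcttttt
Promoters of 6 members, with 9 start sites, were searched on both strands. The letters were CCGGAA, the AP-1 site TGANTCA and the cyclic AMP response element TGACGTCA. Promoters of DUSP4, DUSP5, ETV4 and ETV5 were not searched, so neither member that fell is included. CCGGAA was found at 2 of the 9 starts, while 14.5% of 35116 promoter windows of the same length hold it. The match of PHLDA1 began at -89 from the start (as TTCCGG in the strand shown), and that of SPRY2, at 1 of its 3 starts, at -142. The AP-1 letters were at 0 of the 9 starts and are in 6.57% of all windows, and the cyclic AMP response element was at 0 of 9 and is in 1.65%. No match says only that these letters are not in this window.

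Of 10 other MAP kinase phosphatases, 4 fell, 1 rose and 5 did not pass, with a median of -0.16. DUSP9, which prefers ERK, fell by -0.80 (SE 0.05, adjusted p = 1.33e-05 in limma). DUSP10, which acts on p38 and JNK, fell by -0.59, and DUSP1, the broad immediate-early phosphatase, by -0.41. DUSP3 rose by 0.14, reversed to -0.026 by centring on hybridization spike-ins, and missed the test with poly-A centring (0.044) and without control replicate 1 (adjusted p = 0.0503 in limma). The 5 of 10 that changed are near the 40.1% of all genes.

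Among 11 measured inhibitors of RAS-ERK signalling outside the members, 3 rose, 1 fell and 7 did not pass (median 0.06), so 36.4% changed, against 40.1% of all genes. With hybridization spike-in centring the balance turned to 1 rise and 3 falls. SPRY1, a close relative of SPRY2 and SPRY4, read 0.63, 0.53 and 0.73 in the knockdown arrays, against -0.73, -0.54 and -0.72 in the control arrays, a rise of 1.29 (SE 0.07, adjusted p = 4.65e-06 in limma). No knockdown array came near a control array, and the rise exceeded that of every member. SPRY1 has no high-signal probe set, whereas all 10 members have one, so the sizes are not matched for signal. SPRED3 rose by 0.32, carried by 1 probe set at 0.66 with the other at -0.02, and PEBP1 rose by 0.25. Centring on hybridization spike-ins left SPRED3 at 0.15 (adjusted p = 0.067) and PEBP1 at 0.084 (adjusted p = 0.13), and neither passed in limma. ERRFI1, an inducible inhibitor of the EGF receptor, fell by -0.31.

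Genes of the cascade itself changed in 9 of 13 measured cases, 6 upward and 3 downward, with a median of 0.07. That is 69.2%, against 40.1% of all genes and 59.6% of those with a high-signal probe set, which 11 of the 13 have. With hybridization spike-in centring the balance turned to 3 rises and 4 falls. The exchange factor SOS2 rose by 0.38, the adaptor SHC1 by 0.34 and MAPK3, which encodes ERK1, by 0.33. RPS6KA3, the ERK-activated kinase RSK2, fell by -0.94 as the mean of 2 probe sets that disagreed in size, at -1.65 and, for the only one of high signal, -0.23. GRB2 fell by -0.16 and MAP2K2, which encodes MEK2, by -0.16. The call of MAP2K2 was lost with the replicate block (adjusted p = 0.070) and without knockdown replicate 1, knockdown replicate 2, control replicate 1 or control replicate 3 (values of -0.17 to -0.11). It was also lost in the fit of largest-variance probe sets (adjusted p = 0.078 in limma). The same held with only probe sets without an _a, _s or _x suffix in their names, where a gene had any (adjusted p = 0.061 in limma). Another 5 listed genes were not analysed here.

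Growth factor ligands and receptors changed in 8 of 12 cases, 5 upward and 3 downward (median 0.0017). That is 66.7%, against 40.1% of all genes and 59.6% of those with a high-signal probe set, which 6 of the 12 have. The balance turned to 3 rises and 4 falls with poly-A centring, and to 1 rise and 6 falls with hybridization spike-in centring. HBEGF, a ligand of the EGF receptor family, fell by -0.90 (SE 0.07, adjusted p = 3.50e-05 in limma). The ligand NRG1 fell by -0.36 as the mean of 8 probe sets that ranged from -0.91 to 0.16. EGFR fell by -0.16, a call lost without knockdown replicate 1 (-0.14, adjusted p = 0.051 in limma). The EGFR call was also lost with only probe sets without an _a, _s or _x suffix (-0.021, adjusted p = 0.80 in limma). The receptors ERBB3, ERBB2 and MET rose by 0.48, 0.28 and 0.27, of which ERBB2 (0.11) and MET (0.10) did not pass after centring on hybridization spike-ins. ERBB2 also missed with high-signal probe sets alone, at 0.067 (adjusted p = 0.21 in limma).

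Among ETS and PHLDA relatives 4 of 12 genes fell and 1 rose, with a median of -0.06. That is 41.7%, against 40.1% of all genes, and hybridization spike-in centring gave 9 falls and 1 rise. ETV1, the remaining PEA3 factor, rose by 0.58 (SE 0.04, adjusted p = 2.44e-05 in limma) like ETV4 and ETV5. However, its 8 probe sets ranged from -0.70 to 1.07. The probe set that fell was the only one without an _a, _s or _x suffix. ETS1, another ERK-responsive factor, fell by -1.17 (SE 0.04, adjusted p = 8.12e-07 in limma), more than any member. PHLDA3, a p53-regulated relative of PHLDA1, fell by -0.29, and ELK3 by -0.21. CIC, the repressor of ETV4 and ETV5, stood at -0.11 (SE 0.05, adjusted p = 0.11) and did not pass.

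The other ERK-responsive genes were split as well: of 12 measured, 6 rose, 5 fell and 1 did not pass, with a median of 0.05. EGR1 and FOS, immediate-early transcription factors, rose by 1.71 and 1.26, and IER3 rose by 0.44. EGR1 stood at 0.76 with high-signal probe sets alone. MYC fell by -1.11, the receptor EPHA2 by -0.74 and the chemokine CXCL8 by -0.56. FOS and MYC had no high-signal probe set, and MYC rests on 1 probe set. In this list 91.7% changed, against 40.1% of all genes and 59.6% of those with a high-signal probe set, which 7 of the 12 have. Both spike-in centrings turned the balance to 5 rises and 6 falls.

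**Figure D4:**
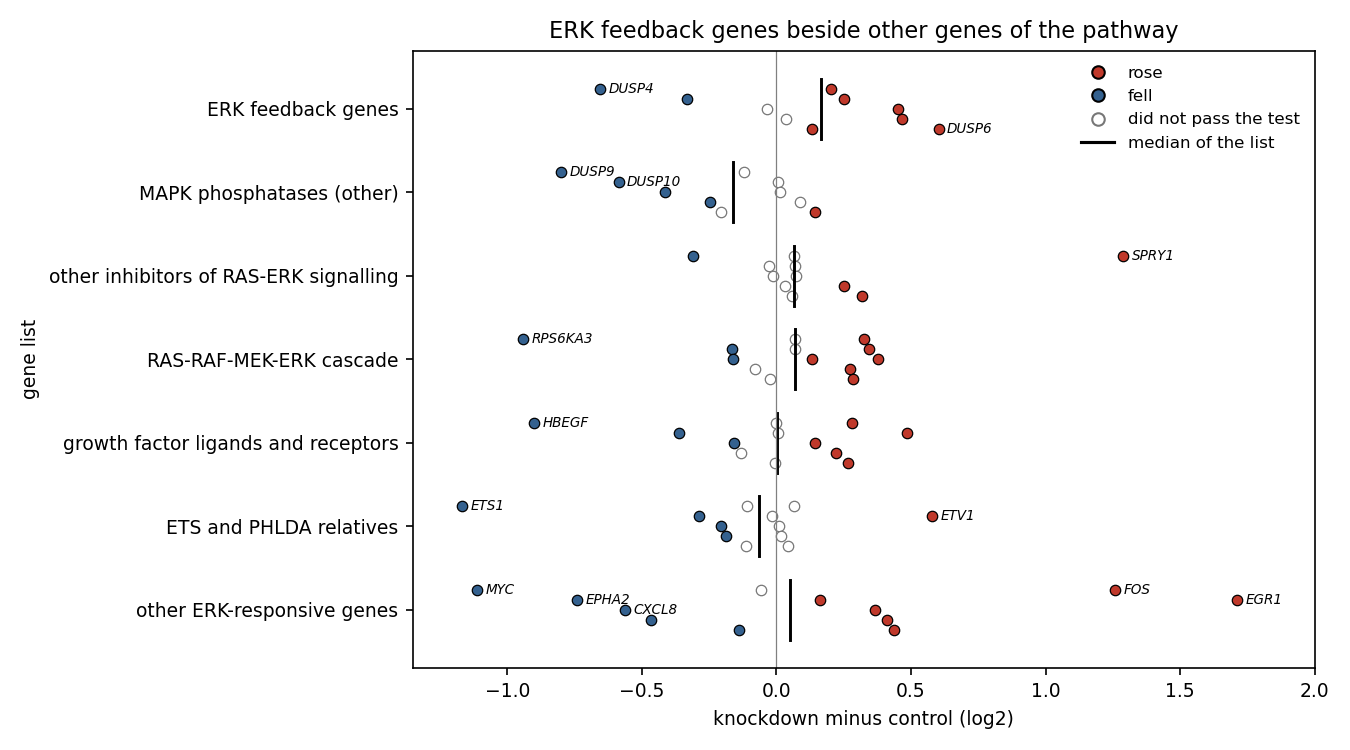
Knockdown minus control (log2, horizontal axis) of the measured genes of each list (vertical axis), red where they rose, blue where they fell and open where they did not pass, with the median of each list as a black bar and names for changes of at least 0.55. Each of the 7 lists holds genes on both sides of 0, and the medians lie between -0.16 and 0.17.

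By Pearson correlation over the 6 arrays, among 193 genes with at least a 2-fold change, the closest to DUSP6 were FAM3C (r = 0.999), DDX60 (r = 0.998) and MZT1 (r = 0.997), which rose by 1.26, 1.45 and 1.21. For DUSP4 they were CITED4 (r = 0.999), COTL1 (r = 0.999) and S100A2 (r = 0.9985), which fell by -1.03, -1.02 and -1.04. With 2 groups of arrays such values mostly restate the difference between the groups.

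The cell type lists cannot show presence without levels. Of 7 measured melanocyte genes, 2 rose, 1 fell and 4 did not pass, with MITF at -0.72 and S100B at 1.09. Their summed value ran from 0.21 to 0.53 in knockdown arrays, against -0.59 to -0.15 in control arrays. Blood cell markers rose in 1 of 5 cases, with sums of 0.27 to 0.31 in knockdown arrays, against -0.45 to -0.12 in control arrays, and had no high-signal probe set. Keratinocyte markers fell in 1 of 3 cases, endothelial markers rose in 1 of 4, and of 5 fibroblast markers 1 rose and 1 fell, and none of these lists had a high-signal probe set. The shares that changed were 42.9% of melanocyte, 20% of blood cell, 33.3% of keratinocyte, 25% of endothelial and 40% of fibroblast markers. Over all genes the share was 40.1%. The part of these cell types in the ERK feedback results was not tested.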

How the data were processed

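Total RNA of A375 cells was hybridized as biotin-labelled cRNA, 1 array per replicate, with 3 arrays per group. Replicates are biological, per the labels, which give no day or batch. The deposited table holds log2 values of 49395 probe sets, 102 of them array controls. RMA, affy and limma are listed in the submitters' processing notes, without a role or order. Each probe set was centred on its median over the arrays (largest absolute median 4.85e-07), a step the sources used here do not describe. The log base is taken from RMA and is not stated. RMA quantile-normalizes, so a shift of all transcripts would not be seen.

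Of the probe sets, 44988 carried 1 symbol in the array's annotation, giving 18132 genes. Genes (mean of probe sets, no filter) and 49293 probe sets were fitted in R 4.3.3 with limma 3.58.1 (lmFit, then eBayes), two-sided, without a block or weights, and checked on simulated data. Unequal change among probe sets of a gene was tested with diffSplice, chosen after seeing the data. A signal class was read from the rounding step of the single-precision values (tolerance 0.1 of a step), which places a probe set at log2 8 to 16 (high, 25.7% of probe sets), 4 to 8 (middle) or 2 to 4 (low) before centring. Where a probe set changed strongly, its class may follow from the change. Pairs of arrays of 1 group shared at most 140 identical values, so none was a copy of another.

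The members and lists were chosen with earlier results of these data known. All members are named, and in each other list up to 3 changed genes per direction, largest change first. MITF, S100B, SOX10 and CIC, named beside these, were picked with their values known. Settings tried were other gene summaries, array centrings, weights, variance model, replicate block and leaving out each array. Promoters are RefSeq's. The precision is limited by the number of arrays, besides the dependence on scaling and probe sets given with the results. Same-numbered arrays correlated at -0.019, -0.014 and -0.062 in their deviations from the group means, and differently numbered ones at -0.036 to 0.053. Deviations from a mean of 3 arrays are tied to each other, and the values were normalized and centred. The correlations therefore cannot tell whether arrays were made in pairs, which the labels do not state.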

Additional observations from a re-analysis of the deposited data

How the results depend on the processing

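Among 160 values of the 10 members under 16 other settings, 140 kept their direction and side of the threshold, 10 missed it, 6 newly passed and 4 changed sign. DUSP4, DUSP5, DUSP6, SPRED2 and PHLDA1 kept theirs in all 16. Part of this agreement was fixed in advance. Settings that choose among probe sets change the error and not the value of DUSP4, DUSP5 and SPRY2, which have 1 probe set each. The replicate block and the robust variance model changed no value of a member. Between 7 and 10 members changed (7 to 8 without 1 array), and between 17 and 24 of the 28 probe sets (19 to 23 without 1 array). Over all genes the share that changed ran from 34.9% to 68.5% (34.9% to 36.6% without 1 array). The count of 10 members came with high-signal probe sets alone, where 68.5% of 6488 genes changed. Of all 49293 probe sets, between 15512 and 25675 changed (15512 to 16412 without 1 array). With the replicate block 7 members changed, SPRY2 losing its call at 0.13 (adjusted p = 0.063), and 22 probe sets. Over all features 36.9% of genes and 16623 of 49293 probe sets changed with it. The sign changed for SPRY2 (-0.036), SPRY4 (-0.13), DUSP3 (-0.026) and the SPRED1 probe set 11734828_at (-0.011) with hybridization spike-in centring, and for SPRY4 with poly-A centring (-0.063). With only probe sets without an _a, _s or _x suffix, where a gene had any, it changed for SPRED1 (0.0067), SPRED3 (-0.021), NRG1 (0.16) and ETV1 (-0.70). The probe sets SPRY4 11736669_s_at and SPRY4 11762359_x_at changed sign when 1 array was left out, with ranges of -0.12 to 0.0048 and -0.0817 to 0.0085, the highest without control replicate 2 and without knockdown replicate 2. With hybridization spike-ins 10960 genes (60.4%) changed, and 10 of 12 ETS and PHLDA relatives. Growth factor genes numbered 4 of 12 with only probe sets without an _a, _s or _x suffix, where 35.4% of all genes changed. The setting of high-signal probe sets alone was chosen after seeing the data and tested fewer genes. There 4445 of 6488 genes (68.5%) changed. Of the listed genes that could be tested there, 3 of 3 phosphatases outside the members changed. So did 4 of 6 growth factor genes and 7 of 7 other ERK-responsive genes. The high-signal value of SPRED2 was 0.29. Signal over background is unknown for centred values, so no limit of detection can be given.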
